A study of Mus musculus with 40 samples.

Results

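The cAMP phosphodiesterases described here are 10 genes of the mouse, Pde3a, Pde3b, Pde4a, Pde4b, Pde4d, Pde7a, Pde7b, Pde8a, Pde8b and Pde10a. They were chosen by name and found by gene identifier, and they are 10 of the 23079 genes in the count table. RNA was sequenced from the cervix and from the myometrium, the muscle wall of the uterus, of pregnant mice of the inbred strain C57BL/6 at 18.5 days post coitum. The mice had been injected intraperitoneally with human chorionic gonadotropin (hCG), a hormone of the placenta that signals through the luteinizing hormone receptor, or with phosphate-buffered saline (PBS). There were 10 libraries each of hCG cervix, PBS cervix, hCG myometrium and PBS myometrium, 40 in all. Neither the dose nor the day of injection is stated in the labels. Nothing in the labels says that the libraries of a group came from separate animals, so the p-values measure the spread between these libraries.

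Cyclic AMP is the messenger made by adenylyl cyclases when a hormone engages a receptor coupled to the G protein Gs, and the luteinizing hormone receptor is one of these. Phosphodiesterases end the signal by hydrolysing cAMP to AMP. In smooth muscle, including that of the uterus, a high level of cAMP is known to favour relaxation, and inhibitors of these enzymes relax the myometrium. The PDE4, PDE7 and PDE8 families act on cAMP alone, whereas PDE3 and PDE10 enzymes also accept cGMP.

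Total counts ran from 6613775 to 22274244 in hCG cervix, from 7255131 to 25028360 in PBS cervix, from 5449239 to 20603741 in hCG myometrium and from 5933199 to 20108002 in PBS myometrium. The cervix libraries fell into a deeper class of at least 16613261 counts, with 6 hCG and 4 PBS libraries, and a shallower class of at most 11602678 counts, with 4 hCG and 6 PBS libraries. Lars2, a mitochondrial leucyl-tRNA synthetase, held more than 1% of all reads counted in libraries 5 to 8 of PBS cervix, in hCG myometrium library 3 and in PBS myometrium libraries 2 and 8. The tissue labels were checked with markers: all 8 squamous epithelium markers were higher in cervix than in myometrium in both treatments, and smooth muscle markers were lower in cervix, 6 of 9 in hCG mice and 9 of 9 in PBS mice. In myometrium 7 of the 8 squamous markers had a median below 1 CPM (counts scaled to library size). Among hCG cervix libraries, number 5 had the highest smooth muscle sum (27030 CPM) and the highest urothelium sum (2277 CPM). Library 1 of that group had the highest skeletal muscle sum (4254 CPM) and library 3 the highest adipocyte sum (2094 CPM). Summed yolk sac markers exceeded 10000 CPM in hCG myometrium libraries 3, 5, 7 and 10 and in PBS myometrium libraries 4, 8 and R3. In bulk tissue, fewer cells of a type and less RNA per cell cannot be told apart.

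All 10 genes passed the filter on low counts in every comparison. Levels of different genes were compared per kb of exon, with all GENCODE exons of a gene joined, whichever of its transcripts were present. By this measure Pde7a, Pde3b and Pde8a had the 3 highest mean levels in each of the 4 groups, in that order, and Pde4a had the lowest. Pde8a has the shortest joined length, 4.04 kb against 12.01 kb for Pde4d, so its rank depends on this choice of length. Pde7a encodes a cAMP-specific enzyme known from T cells and muscle. Its mean level was 12.34 CPM per kb in hCG cervix, 12.48 in PBS cervix, 14.53 in hCG myometrium and 11.99 in PBS myometrium. Pde4a, a member of the family targeted by rolipram, stayed at 0.409 CPM per kb in hCG cervix, 0.299 in PBS cervix, 0.375 in hCG myometrium and 0.469 in PBS myometrium. The level summed over the 10 genes was 40.69 ± 4.16 CPM per kb in hCG cervix and 36.49 ± 5.78 in PBS cervix (SD, n = 10 each). The same sum was 49.05 ± 4.40 CPM per kb in hCG myometrium and 50.97 ± 6.42 in PBS myometrium (SD, n = 10 each). Pde3b made up 26.54% of the sum in hCG cervix and 19.49% in PBS cervix, and Pde10a 1.58% in hCG cervix and 4.02% in PBS cervix.

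**Figure D1:**
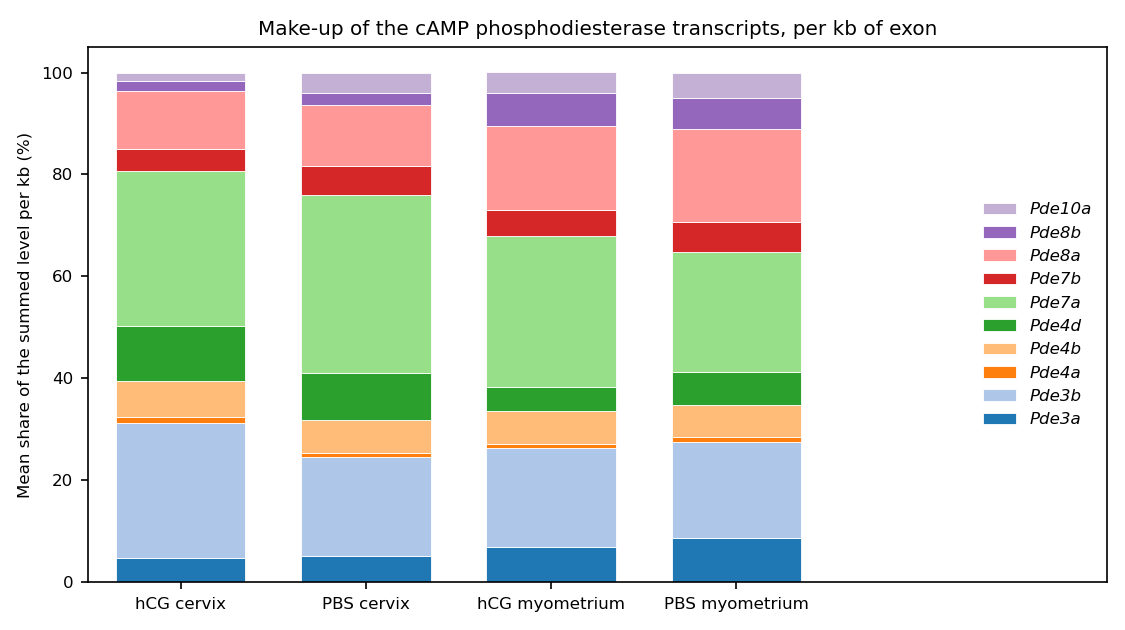
Stacked bars give the mean share (%) of each gene in the level per kb summed over the 10 cAMP phosphodiesterases, for hCG cervix, PBS cervix, hCG myometrium and PBS myometrium (10 libraries each). Pde7a, Pde3b and Pde8a make up most of each bar, and Pde10a is 1.58% in hCG cervix and 4.02% in PBS cervix.

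**Figure D2:**
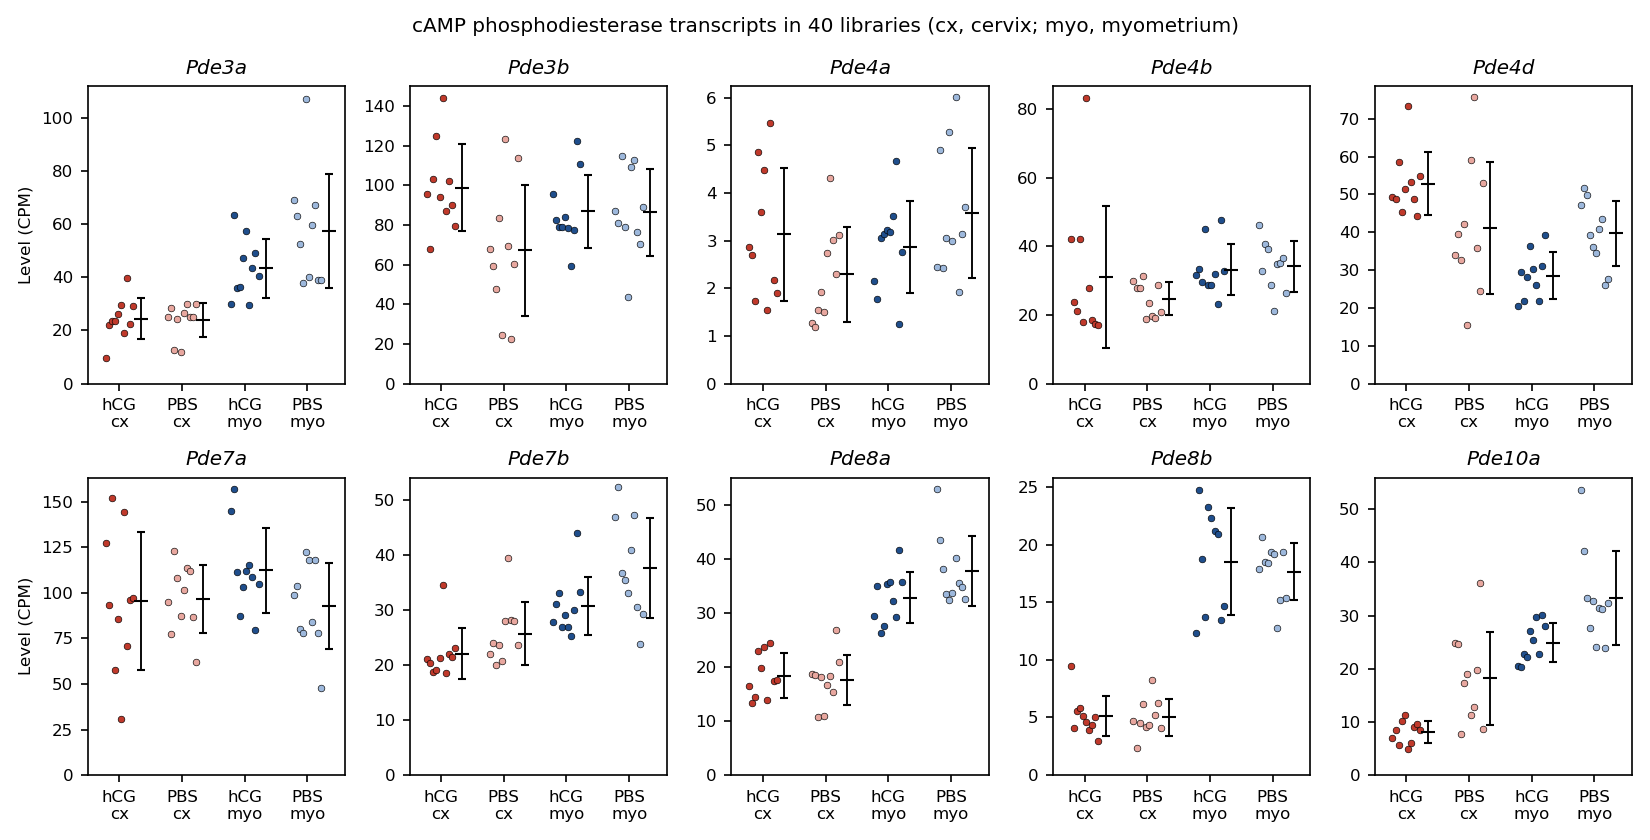
Points are single libraries (CPM, linear axes that start at 0 and differ between genes), and the bar beside each group is the mean ± SD of its 10 libraries. Pde8b and Pde8a in cervix lie below every myometrium library of the same treatment, and the hCG cervix values of Pde10a lie between 4.98 and 11.3 CPM.

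RefSeq promoter windows (GRCm38.p6, the 250 bases before a start) were at hand for 7 of the 10 genes, 17 windows in all, and not for Pde3a, Pde3b and Pde7a. Of these, 1 each is shown for Pde10a, Pde8b and Pde8a. They are the members with lower levels in cervix than in myometrium of hCG mice without overlap. The share of all genes with no such overlap was not counted. Each window shown holds 0 bases of an exon in the GENCODE annotation. Pde10a has 2 windows, Pde8b 5 and Pde8a 1. Both Pde10a windows and the Pde8b window shown lie inside the gene, before internal starts. The bases after the start were found in a GENCODE transcript for the Pde10a window shown, but not for the other windows shown. A Pde8b window at the upstream end of the gene, chr13:95250337-95250586, also holds 0 bases of an exon, with its start found. Capitals mark the motifs found, GGGCGG (GC box) and TGACG (the core of the cAMP response element).
Pde10a, chr17:8849735-8849984, plus strand: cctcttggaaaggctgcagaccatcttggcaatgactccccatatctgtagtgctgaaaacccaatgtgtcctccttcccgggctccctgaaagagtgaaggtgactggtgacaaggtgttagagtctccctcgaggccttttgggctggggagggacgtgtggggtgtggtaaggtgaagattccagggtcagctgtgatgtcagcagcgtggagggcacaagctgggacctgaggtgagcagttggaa
Pde8b, chr13:95223093-95223342, minus strand: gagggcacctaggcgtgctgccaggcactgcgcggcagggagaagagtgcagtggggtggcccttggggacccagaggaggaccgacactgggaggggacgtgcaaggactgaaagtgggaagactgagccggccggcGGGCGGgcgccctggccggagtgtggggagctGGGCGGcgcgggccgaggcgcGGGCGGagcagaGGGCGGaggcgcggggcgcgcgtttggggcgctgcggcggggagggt
Pde8a, chr7:81213015-81213264, plus strand: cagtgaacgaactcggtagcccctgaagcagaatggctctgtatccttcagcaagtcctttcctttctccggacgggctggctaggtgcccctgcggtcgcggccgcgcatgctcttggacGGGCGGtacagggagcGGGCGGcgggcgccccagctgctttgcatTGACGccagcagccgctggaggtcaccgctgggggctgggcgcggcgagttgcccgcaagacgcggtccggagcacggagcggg

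The windows were searched on both strands for the full cAMP response element TGACGTCA, its core TGACG (which the full element contains), the GC box GGGCGG, the TATA box TATAAA and the CArG box. The Pde8a window held 2 GC boxes and 1 core, the Pde8b window shown 4 GC boxes, and the Pde10a window shown none of the 5 motifs. The other Pde10a window held 1 GC box. Of the other 4 Pde8b windows, 1 overlaps the one shown and held 4 GC boxes, and 3 held none of the motifs. Over the 17 windows, 0 held the full element, 3 the core and 6 the GC box, and 0 held the TATA or CArG box. Of 32851 windows of all genes, 1.55% held the full element, 17.8% the core, 32.7% the GC box, 12.4% the TATA box and 1.47% the CArG box.

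The first comparison asked which of these genes hCG altered in the cervix. Pde10a was lower in hCG cervix than in PBS cervix by 2.23-fold, and it was the one member of 10 that passed the test. No member was higher. Of all 14932 genes tested, 8.91% passed, 4.74% higher and 4.17% lower, so 1 of 10 is near the share of all genes. The median log2 difference was 0.07 over the 10 members and 0.0070 over all genes tested.

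Pde10a (gene 23984, GRCm38.p6 chr17:8525187-8986648, plus strand) encodes a dual-specificity enzyme best known from striatal neurons. Its level was 4.98 CPM in the lowest, 8.42 in the median and 11.3 in the highest hCG cervix library, against 7.74, 18.1 and 36.2 CPM in PBS cervix. All 10 hCG libraries lay below the PBS median, but the ranges overlapped, since PBS libraries 2 and R3 had 7.74 and 8.71 CPM. The means were 8.07 ± 2.08 CPM in hCG cervix and 18.18 ± 8.74 CPM in PBS cervix (SD, n = 10 each). The fitted log2 difference was -1.16 (SE 0.246, adjusted p = 0.0263, edgeR's quasi-likelihood test with Benjamini-Hochberg adjustment over all genes).

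The size of this difference varied little when libraries were left out, while the call did not always hold. Within the deeper class Pde10a ran from 4.98 to 11.3 CPM in 6 hCG libraries and from 7.74 to 24.7 CPM in 4 PBS libraries, with a log2 difference of -1.15 (edgeR adjusted p = 0.0759). Within the shallower class it ran from 8.39 to 9.62 CPM in 4 hCG libraries and from 8.71 to 36.2 CPM in 6 PBS libraries, with a log2 difference of -1.09 (edgeR adjusted p = 0.799). That fit of the shallower class called 0 of all genes, and 776 had an unadjusted p under 0.05. All 4 PBS cervix libraries with over 1% Lars2 are in this class, so depth class and Lars2 share are not independent in PBS cervix. A fit over both classes with a term for class gave a log2 difference of -1.12 (edgeR adjusted p = 0.0463). Without hCG cervix libraries 1, 3 and 5 it was -1.10 (edgeR adjusted p = 0.0833), and without the libraries with over 1% Lars2 it was -1.05 (edgeR adjusted p = 0.0639). Leaving out hCG cervix library 3 or PBS cervix library 4, 7 or 8 also ended the call, with edgeR adjusted p-values between 0.0506 and 0.0552. In these fits the calls of all genes fell too, to 8, 1, 1 and 2 in the same order, against 1331 with all libraries. The unadjusted edgeR p of Pde10a stayed between 0.000153 and 0.00025.

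**Figure D3:**
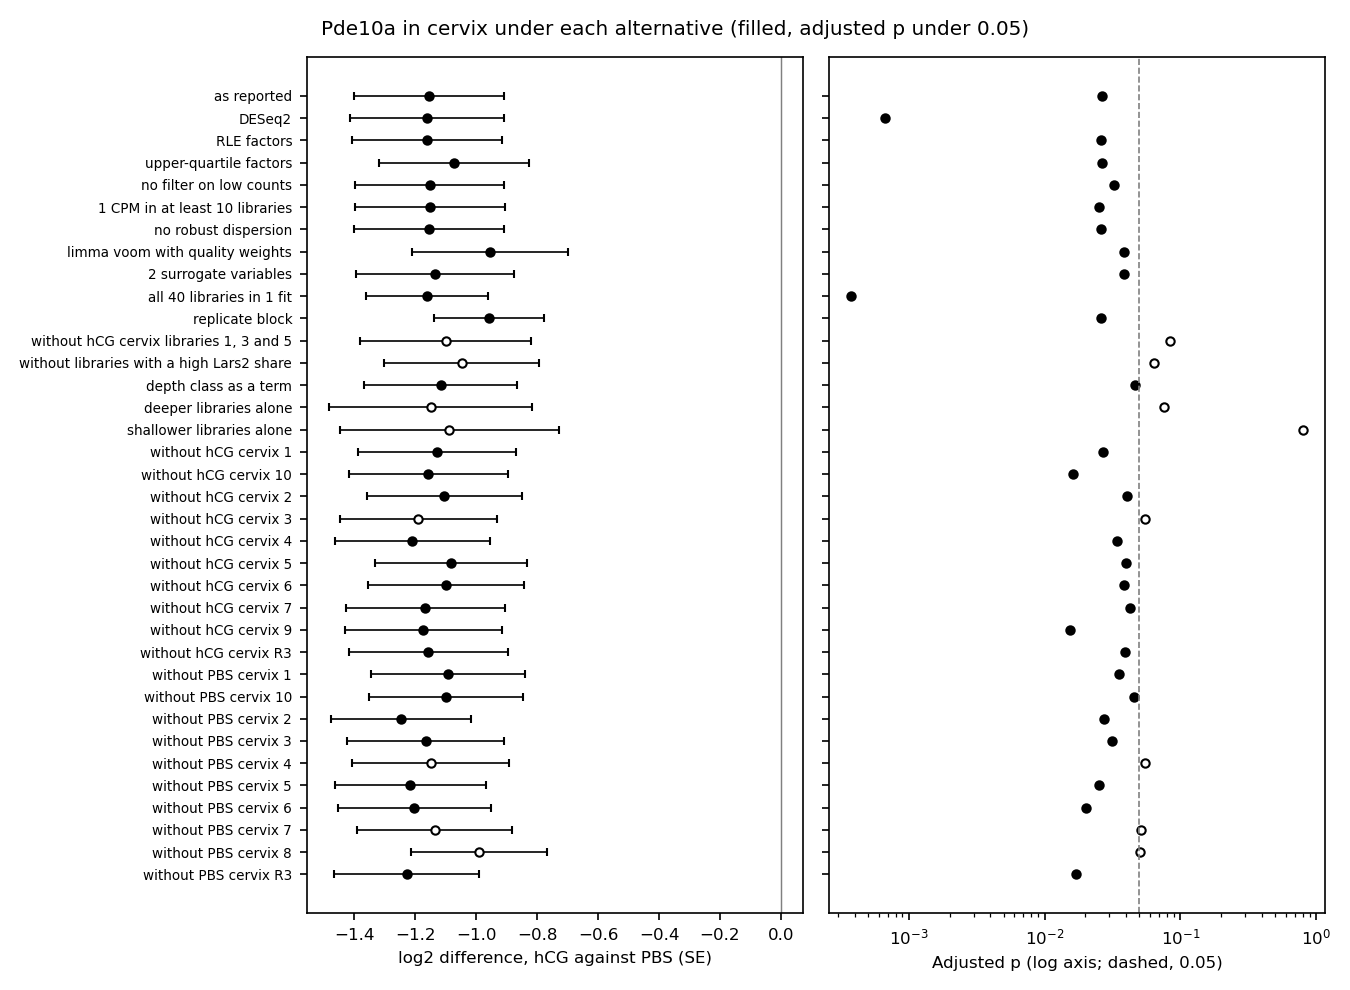
The left panel gives the log2 difference of Pde10a between hCG and PBS cervix with its SE, and the right panel the adjusted p on a log axis, as reported and under each alternative. Filled points are under 0.05, and the log2 difference stays between -1.25 and -0.95 throughout while 8 points on the right are open.

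All 8 squamous epithelium markers had negative log2 differences between hCG and PBS cervix, the direction of Pde10a. Their summed level ran from 1215 to 15420 CPM in hCG cervix and from 9162 to 59240 CPM in PBS cervix. By the same test 2 of the 8 markers were lower in hCG cervix. Whether these markers followed Pde10a from library to library was not tested. Of the other markers tested, 5 of 5 of urothelium, 3 of 5 of neutrophils, 2 of 6 of macrophages and monocytes, 1 of 5 of adipocytes, 1 of 5 of endothelium and 1 of 4 of yolk sac were higher in hCG cervix. None of 9 of smooth muscle and none of 4 of skeletal muscle passed, the skeletal muscle list with a median log2 difference of 3.26. The urothelium sum had a median of 18.7 CPM in hCG cervix and 18.0 CPM in PBS cervix, and it was high in hCG libraries 5 (2277 CPM), 3 (620.2 CPM) and R3 (186.5 CPM). The part of these cells in the Pde10a difference was not tested.

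The genes whose levels ran most like Pde10a over the 20 cervix libraries, each centred on the mean of its group, were Kcns3, Gpr83 and Inhbb, of 12886 candidates. Pearson's r was 0.878 for Kcns3, a potassium channel subunit, 0.850 for Gpr83, a G protein-coupled receptor, and 0.842 for Inhbb, the beta B subunit of activin and inhibin. These values describe libraries of the same tissue and of both depth classes. Within the deeper class r was 0.935, 0.81 and 0.793 in the same order, and within the shallower class 0.822, 0.92 and 0.888. Without the 2 libraries farthest from the median r was 0.798, 0.817 and 0.837. Inhbb had a median of 46.9 CPM in hCG cervix and 182.4 CPM in PBS cervix, and it was lower in hCG cervix, with a log2 difference of -2.0 (SE 0.457, edgeR adjusted p = 0.0275). Gpr83 was lower too, with a log2 difference of -4.80 (SE 0.982, edgeR adjusted p = 0.0263). Its levels were near the floor in hCG cervix, with 0, 1.10 and 2.66 CPM in the lowest, median and highest library. In PBS cervix they spread widely, with 0.38, 9.5 and 180 CPM. Kcns3 did not pass, with a log2 difference of -0.66 (SE 0.320, edgeR adjusted p = 0.176).

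The PDE3 genes did not pass in cervix. Pde3b (gene 18576, chr7:114415222-114537938), the insulin-responsive enzyme of fat and liver, had 68.0, 94.9 and 144.1 CPM in the lowest, median and highest hCG cervix library, against 22.5, 64.2 and 123.6 CPM in PBS cervix. All 10 hCG libraries were above the PBS median, and the ranges overlapped. Its log2 difference was 0.58 (SE 0.246, edgeR adjusted p = 0.122), and it was 1.0 in the deeper class alone and 0.18 in the shallower class alone, neither passing. Pde3a (gene 54611, chr6:141249269-141506862), the form typical of heart and vascular muscle, had a median of 23.6 CPM in hCG cervix and 25.1 CPM in PBS cervix, with a log2 difference of 0.05 (SE 0.205).

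Among the PDE4 genes, Pde4d (gene 238871, chr13:108654177-109955969) encodes the form most often tied to cAMP control near receptors in muscle. It had 44.3, 50.4 and 73.5 CPM in the lowest, median and highest hCG cervix library, against 15.5, 37.8 and 75.7 CPM in PBS cervix. All 10 hCG libraries lay above the PBS median, and the spread of the PBS libraries was wide enough to enclose them. The log2 difference was 0.38 (SE 0.203, edgeR adjusted p = 0.223). In the deeper class alone it was 0.87 and in the shallower class alone 0.021, neither passing. Pde4b (gene 18578, chr4:102087332-102607275), the form known from immune cells, had a median of 22.5 CPM in hCG cervix and 25.6 CPM in PBS cervix, and its log2 difference of 0.36 (SE 0.261) turned to -0.26 without hCG libraries 1, 3 and 5. Pde4a (gene 18577, chr9:21165700-21213248) had a median of 2.79 CPM in hCG cervix and 2.11 CPM in PBS cervix, with a log2 difference of 0.49 (SE 0.291, edgeR adjusted p = 0.271), or 1.07 in the deeper and 0.13 in the shallower class alone, neither passing.

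The PDE7 and PDE8 genes had small differences between hCG and PBS cervix. Pde7a (gene 18583, chr3:19223108-19311322) had a log2 difference of -0.0057 (SE 0.209) and Pde7b (gene 29863, chr10:20397052-20725078) of -0.21 (SE 0.139). Pde8a (gene 18584, chr7:81213265-81334535) had 0.09 (SE 0.163) and Pde8b (gene 218461, chr13:95024105-95250401), a high-affinity cAMP enzyme known from adrenal and thyroid, 0.05 (SE 0.214). Library 5 of the hCG cervix was the highest of its group for Pde3b, Pde4b, Pde4d and Pde7b and the lowest for Pde7a and Pde10a. PBS cervix library 6, one with a high share of Lars2, was the highest of its group for 5 members. Exons of Pde3a, Pde7a and Pde8b overlap the opposite-strand genes Gm28523, Gm16093 and Gm48420. The longest shared stretch is 741, 48 and 447 bases, of 12.74, 7.75 and 5.88 kb of joined exons. Reads in the shared stretches cannot be told apart because the strand setting of the counting is unknown.

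**Figure D4:**
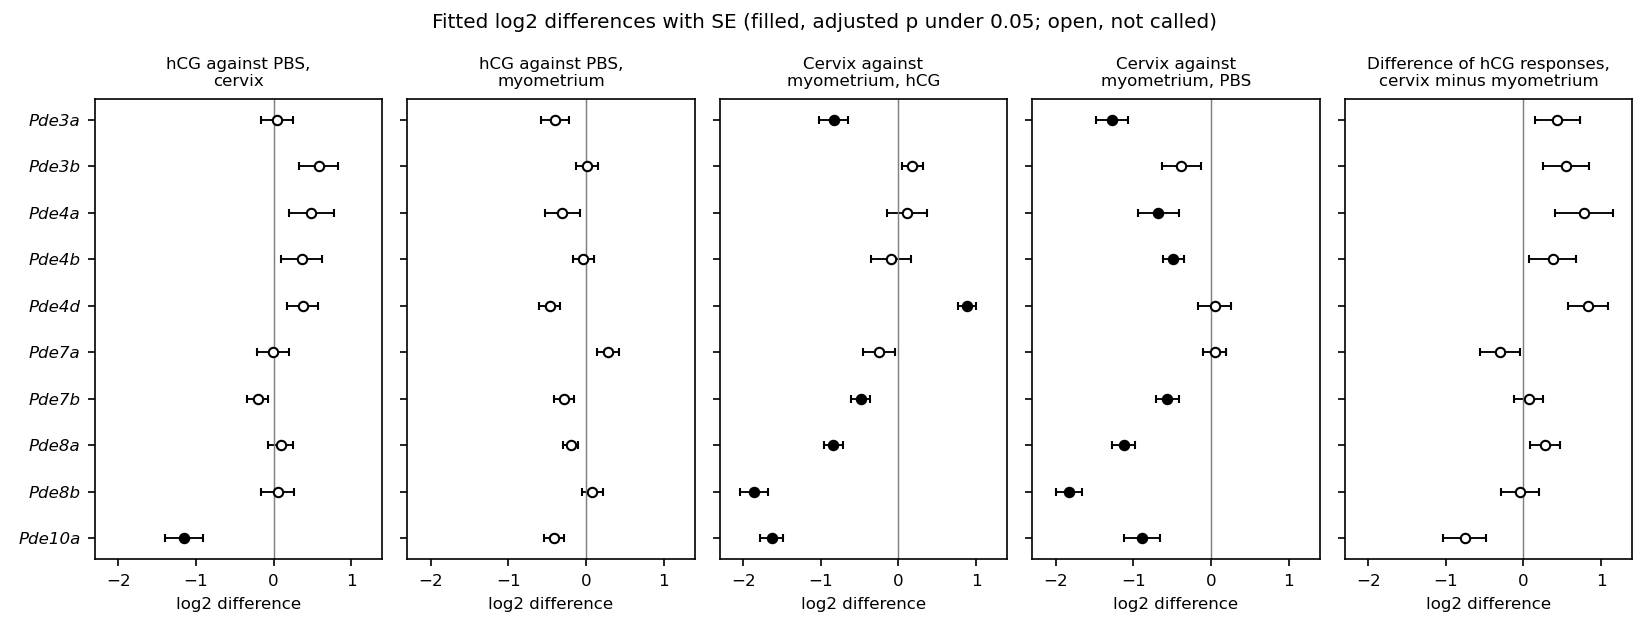
Points are fitted log2 differences with their SE for the 10 genes in the 5 comparisons, filled where the adjusted p is under 0.05. Pde10a is the one filled point in the first panel at -1.16, no point is filled for hCG against PBS in myometrium or for the difference of responses, and between the tissues all filled points but Pde4d in hCG mice lie below 0.

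The second comparison asked the same of the myometrium. No member passed there, in a comparison in which 2 of 14517 genes did (0.0138%, with 0.00689% higher and 0.00689% lower), while 2255 genes and 4 members (Pde3a, Pde4d, Pde7b and Pde10a) had an unadjusted p under 0.05. DESeq2 called 384 genes, with Pde4d as the one member among them. The median log2 difference was -0.24 over the members and 0.0084 over all genes tested.

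Pde4d had 20.5, 28.9 and 39.3 CPM in the lowest, median and highest hCG myometrium library, against 26.1, 40.2 and 51.6 CPM in PBS myometrium. All 10 hCG libraries were below the PBS median, with overlap of the ranges. The log2 difference was -0.47 (SE 0.136, edgeR adjusted p = 0.106), and DESeq2 gave -0.48 with an adjusted p of 0.0438.

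Pde10a had 20.2, 24.1 and 30.2 CPM in the lowest, median and highest hCG myometrium library, against 23.8, 31.9 and 53.5 CPM in PBS myometrium. Here too all 10 hCG libraries were below the PBS median and the ranges overlapped. The log2 difference was -0.41 (SE 0.127, edgeR adjusted p = 0.130). Pde3a had -0.40 (SE 0.180, edgeR adjusted p = 0.293) and Pde7b -0.29 (SE 0.128, edgeR adjusted p = 0.278), and Pde7a had 0.29 (SE 0.144). The other members were between -0.30 and 0.08 on the log2 scale. The summed yolk sac markers ran from 266.2 to 36430 CPM in hCG myometrium and from 217.0 to 22950 CPM in PBS myometrium, and without the 7 libraries above 10000 CPM the log2 difference was -0.52 for Pde4d and -0.41 for Pde10a (edgeR adjusted p = 0.355 and 0.360).

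**Figure D5:**
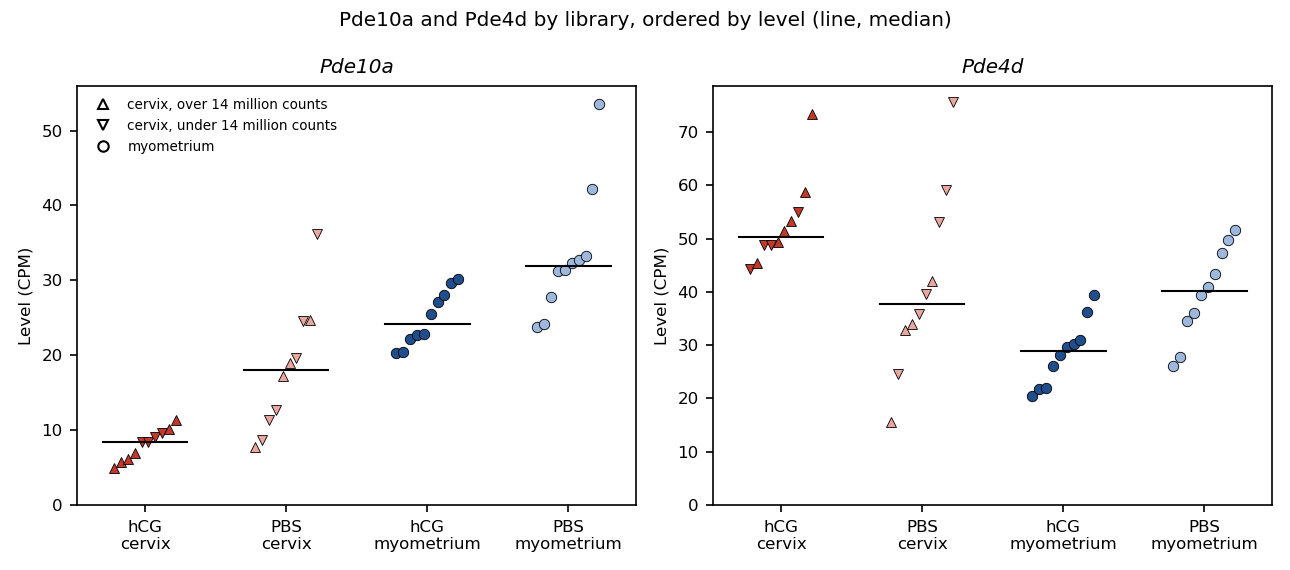
Each point is 1 library, ordered by level within its group (CPM, linear axis from 0), and the line is the median. Upward triangles are the deeper cervix libraries, downward triangles the shallower ones and circles the myometrium, and the hCG medians of Pde4d are 50.4 CPM in cervix and 28.9 CPM in myometrium.

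The cervix was then set against the myometrium within each treatment. In hCG mice 6 members passed, 1 higher and 5 lower in cervix, where 43.7% of 14974 genes passed, 24.3% higher and 19.4% lower. In PBS mice 7 members passed, all lower in cervix, where 54.0% of 14545 genes passed, 28.0% higher and 26.1% lower. The median log2 difference was -0.37 over the members and 0.07 over all genes in hCG mice, and -0.62 over the members and 0.04 over all genes in PBS mice. How many of all genes had no overlap between the tissues was not counted.

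Pde8b had the largest tissue difference of the 10. In hCG mice it had 2.99, 4.80 and 9.46 CPM in the lowest, median and highest cervix library, against 12.3, 19.9 and 24.7 CPM in myometrium. In PBS mice it had 2.36, 4.62 and 8.25 CPM in cervix, against 12.7, 18.4 and 20.7 CPM in myometrium. The tissues did not overlap in either treatment, and the log2 difference was -1.86 (SE 0.184, edgeR adjusted p = 7.01e-08) in hCG mice and -1.83 (SE 0.166, edgeR adjusted p = 5.77e-09) in PBS mice.

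Pde8a, its close relative, had medians of 17.5 CPM in cervix and 33.6 CPM in myometrium of hCG mice, and 18.3 CPM in cervix and 35.2 CPM in myometrium of PBS mice. Again the tissues did not overlap, with log2 differences of -0.84 (SE 0.124, edgeR adjusted p = 1.4e-05) in hCG mice and -1.12 (SE 0.147, edgeR adjusted p = 1.28e-06) in PBS mice.

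Pde3a had 9.72, 23.6 and 39.7 CPM in the lowest, median and highest cervix library of hCG mice, against 29.7, 41.9 and 63.7 CPM in myometrium. In PBS mice it had 12.1, 25.1 and 30.1 CPM in cervix, against 37.7, 56.3 and 107.3 CPM in myometrium. The tissues overlapped in hCG mice and did not in PBS mice. The log2 difference was -0.83 (SE 0.187, edgeR adjusted p = 0.00112) in hCG mice and -1.28 (SE 0.207, edgeR adjusted p = 2.14e-05) in PBS mice.

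Pde7b, known from brain and heart, had medians of 21.2 CPM in cervix and 29.6 CPM in myometrium of hCG mice, and 23.9 CPM in cervix and 36.2 CPM in myometrium of PBS mice. It passed in both treatments although the tissues overlapped, with log2 differences of -0.49 (SE 0.117, edgeR adjusted p = 0.00207) in hCG mice and -0.56 (SE 0.151, edgeR adjusted p = 0.0035) in PBS mice. Pde7a and Pde3b passed in neither treatment. Pde7a had a log2 difference of -0.25 (SE 0.207) in hCG mice and 0.05 (SE 0.150) in PBS mice, and Pde3b of 0.18 (SE 0.134) in hCG mice and -0.38 (SE 0.252) in PBS mice.

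Pde10a was lower in cervix in both treatments. Its log2 difference was -1.64 (SE 0.144, edgeR adjusted p = 1.55e-08) in hCG mice, where the tissues did not overlap, and -0.89 (SE 0.233, edgeR adjusted p = 0.00286) in PBS mice, where they did. Pde4d was higher in cervix in hCG mice, with no overlap, 44.3 to 73.5 CPM in cervix and 20.5 to 39.3 CPM in myometrium. Its log2 difference was 0.88 (SE 0.119, edgeR adjusted p = 4.89e-06) in hCG mice and 0.05 (SE 0.216, edgeR adjusted p = 0.869) in PBS mice. Pde4a and Pde4b were lower in cervix of PBS mice, with log2 differences of -0.68 (SE 0.264, edgeR adjusted p = 0.0342) and -0.48 (SE 0.133, edgeR adjusted p = 0.00417). The Pde4a call was lost on leaving out any of 8 single libraries (PBS cervix 1, 2, 3, 4 or 10, or PBS myometrium 4, 6 or 10), with edgeR adjusted p up to 0.0783, and without the Lars2 libraries its log2 difference was -1.20 (edgeR adjusted p = 0.0021). The Pde4b call was lost without the Lars2 libraries (-0.38, edgeR adjusted p = 0.0693), with limma voom (-0.27, adjusted p = 0.132) and with all 40 libraries in 1 edgeR fit (-0.49, adjusted p = 0.0511). In hCG mice Pde4b had -0.10 (SE 0.261) with all libraries and -0.72 (edgeR adjusted p = 0.000444) without cervix libraries 1, 3 and 5. Beside these genes the summed smooth muscle markers ran from 1200 to 27030 CPM in cervix and from 12100 to 26080 CPM in myometrium of hCG mice. In PBS mice they ran from 2055 to 12050 CPM in cervix and from 13250 to 29140 CPM in myometrium. Endothelium markers were also lower in cervix, 5 of 5 in either treatment. Of 6 macrophage and monocyte markers, 4 were lower and 1 higher in cervix in hCG mice, and 5 were lower in PBS mice. The part of these cells in the differences was not tested.

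The last comparison tested whether the hCG difference itself differed between cervix and myometrium. No member passed, where 0.352% of 15624 genes did (0.128% higher and 0.224% lower), and 3120 genes had an unadjusted p under 0.05. Pde4d had the largest value, 0.83 (SE 0.254, edgeR adjusted p = 0.0824), from 0.38 in cervix and -0.47 in myometrium in the separate fits. DESeq2 gave it an adjusted p of 0.0453, limma voom with quality weights 0.0331, and edgeR 0.0242 without the Lars2 libraries and 0.0224 without PBS cervix library 6. Of 53 alternatives, however, 48 left Pde4d uncalled. Among these, its edgeR adjusted p was 0.166 without hCG cervix libraries 1, 3 and 5. Without the libraries high in yolk sac markers it was 0.214. Pde4a had 0.78 (SE 0.374, edgeR adjusted p = 0.233), and 1.32 (edgeR adjusted p = 0.0444) without the Lars2 libraries. Pde10a had -0.76 (SE 0.278, edgeR adjusted p = 0.128). The 5 comparisons share libraries, so their values are not independent of each other.

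Other genes of the pathway were counted for the same comparisons. In cervix, hCG against PBS, 3 of 9 tested other phosphodiesterases were higher and none lower: Pde1b (1.23, edgeR adjusted p = 0.0324), Pde2a (1.48, edgeR adjusted p = 0.0392) and Pde5a (1.80, edgeR adjusted p = 0.0411), log2 differences of enzymes that are calmodulin-dependent, cGMP-stimulated and cGMP-specific. The median of the 9 was 0.37. Pde5a had 959.7 CPM in hCG cervix library 5, against a median of 70.7 CPM in hCG cervix and 53.5 CPM in PBS cervix. Higher too were 2 of 13 genes of cAMP synthesis (the adenylyl cyclases Adcy7 and Adcy2), 3 of 26 cAMP effectors (the kinase regulatory subunit Prkar2b, the kinase inhibitor Pkia and the anchoring protein Akap5), 2 of 12 Gs coupled receptors (the prostaglandin receptor Ptger2 and the adrenergic receptor Adrb3) and 1 of 16 cAMP induced genes (the coactivator Ppargc1a). None of these lists had a member that was lower. Of all genes 4.74% were higher and 4.17% lower. The count of 1 of 16 lies near the share of higher genes, and the other counts lie above it. With lists this short, nothing is read from these counts. Without hCG cervix libraries 1, 3 and 5, or without the Lars2 libraries, no gene of these 5 lists passed. Leaving out libraries 1, 3 and 5 gave log2 differences of 0.44 for Pde5a, 0.44 for Pde2a and 0.60 for Pkia, while without the Lars2 libraries they were 1.76 for Pde5a, 1.59 for Pde2a and 1.39 for Pkia. In those fits 0 and 1 of all genes passed by edgeR, and 2833 and 4266 had an unadjusted p under 0.05.

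In myometrium, hCG against PBS, no gene of the 5 lists passed, and the same held for the difference of the responses. Between the tissues the counts stand beside 43.7% of all genes called in hCG mice and 54.0% in PBS mice, and nothing is read from counts near those shares. In PBS mice 2 of 8 other phosphodiesterases were higher in cervix (Pde12 and Pde9a) and 5 lower (with Pde2a, Pde5a, Pde1b and Pde4c the smallest p). In hCG mice 3 of 9 were higher in cervix (Pde1a, Pde9a and Pde12) and none lower. Of the cAMP effectors, 4 of 26 were higher and 6 lower in cervix in hCG mice, and 4 of 25 higher and 13 lower in PBS mice, among them the anchoring protein Akap12 with a log2 difference of -2.13 (SE 0.197, edgeR adjusted p = 8.14e-09). Of the Gs coupled receptors, 4 of 14 were higher and 5 lower in hCG mice, and 4 of 12 higher and 7 lower in PBS mice. The vasoactive intestinal peptide receptor Vipr1 was higher in cervix, with a log2 difference of 4.04 (SE 0.226, edgeR adjusted p = 2.57e-12), and the prostaglandin D2 receptor Ptgdr lower, with -4.40 (SE 0.355, edgeR adjusted p = 9.31e-10), both in PBS mice. Genes of cAMP synthesis were 2 of 15 higher and 6 lower in hCG mice and 2 of 14 higher and 8 lower in PBS mice. Of the cAMP induced genes, 7 of 17 were higher and 3 lower in hCG mice, and 4 of 14 higher and 2 lower in PBS mice.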

How the data were processed

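The authors deposited raw counts per gene for 40 libraries, made from total RNA with a strand-specific Illumina kit per the labels' protocols. TopHat2 and GRCm38 (mm10) were used per the submitters' processing notes; no source names the counting tool or its strand setting. Of 23079 identifiers 23008 matched a symbol, and the 71 others, with 0.197% of the counts, were kept. Counts were filtered (filterByExpr), TMM-scaled and tested over all genes with edgeR 4.0.16 (quasi-likelihood, robust; R 4.3.3) at a Benjamini-Hochberg adjusted p of 0.05. Levels are CPM, divided by GENCODE exon length where genes are compared. SE is the log2 difference over the square root of F. The steps were tested on simulated data, drawn with the lower dispersion estimate of each gene and without outlying libraries. That setting is milder than these data. Alternatives used DESeq2 1.42.0, limma 3.58.1 and sva 3.50.0. Total counts limit the precision of low genes such as Pde4a, with as few as 9 counts in a library. All 10 members are named, and of each pathway list up to 4 genes called each way with the smallest p, some only as counts. The 3 genes most like Pde10a were taken by Pearson's r of group-centred log2 CPM. Members and lists were chosen with earlier results of these data known.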

Additional observations from a re-analysis of the deposited data

Results flagged for a closer look

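In 7 of 40 combinations of a gene and a group of 10 libraries, 1 library stood apart from the rest by Dixon's ratio, the gap to the nearest library over the range of the group, with a critical value of 0.466. About 1 in 20 independent groups of normally spread values pass it by chance. CPM values need not be spread that way and the genes share libraries, so 7 of 40 cannot be set against that rate. In hCG cervix, library 5 was apart for Pde4b (83.1 CPM, next 42.2, ratio 0.620), Pde4d (73.5 CPM, next 58.7, ratio 0.507) and Pde7b (34.7 CPM, next 23.1, ratio 0.723). Library 1 of hCG cervix was apart for Pde8b (9.46 CPM, next 5.82, ratio 0.563). In PBS cervix, library 6 was apart for Pde7b (39.6 CPM, next 28.1, ratio 0.583). In hCG myometrium, library 8 was apart for Pde7b (44.0 CPM, next 33.2, ratio 0.575), and in PBS myometrium library 4 for Pde3a (107.3 CPM, next 69.4, ratio 0.545).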

How the results depend on the processing

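Of 1890 member values under the alternatives, 1783 kept their direction and their side of the threshold, 19 lost the call, 11 gained it and 77 changed sign, none of these 77 called in either setting. In cervix the 1 member called (Pde10a) became 2 with all 40 libraries in 1 fit (Pde3b and Pde10a), and 0 without hCG libraries 1, 3 and 5, without the Lars2 libraries, in the deeper libraries alone and in the shallower alone, and 0 to 1 on leaving out single libraries. In myometrium 0 became 1 with DESeq2. For the difference of the responses 0 became 1 with DESeq2, with limma voom and at an adjusted p of 0.1, 2 without the Lars2 libraries, and 0 to 1 on leaving out single libraries. The tissue comparisons called 6 to 7 members throughout. The cause of these changes was not tested.

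Whether a label number marks an animal is not stated. A mouse received hCG or PBS, so only pairs of tissues within a treatment bear on this. Same-numbered libraries did not all deviate together. For the tissues, 3 of 9 pairs correlated above 0.1 in hCG mice and 5 of 9 in PBS mice. For hCG against PBS, where a pair cannot be 1 animal, 4 of 9 did in cervix and 3 of 8 in myometrium. Correlations of same-numbered libraries ran from -0.067 to 0.302 for hCG against PBS in cervix, -0.187 to 0.192 in myometrium, -0.115 to 0.324 for the tissues in hCG mice and -0.253 to 0.571 in PBS mice, and not every library correlated best with its own number. With the replicate block, which in cervix pairs hCG with PBS mice, Pde10a had -0.96 (edgeR adjusted p = 0.026), and the block left the count in cervix at 1.

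Log2 differences that changed sign were, for hCG against PBS in cervix, Pde7a 0.051 with upper-quartile factors, Pde4b -0.22 with limma voom, Pde4b -0.12, Pde7a 0.041 and Pde8b -0.044 with 2 surrogate variables, Pde4b -0.26, Pde7a 0.13, Pde8a -0.010 and Pde8b -0.16 without hCG libraries 1, 3 and 5, Pde7a 0.077 and Pde7b 0.010 without the Lars2 libraries, Pde8b -0.0027 with the depth class as a term, Pde7b 0.084 in the deeper libraries, and Pde4b -0.29, Pde8a -0.10 and Pde8b -0.32 in the shallower. For hCG against PBS in myometrium they were Pde3b -0.0033 with a filter of 1 CPM in 10 libraries, Pde3b -0.045 and Pde4b 0.015 with limma voom, Pde3b -0.025 with the replicate block, and Pde3b -0.077 and Pde8b -0.018 without libraries high in yolk sac markers, an alternative chosen after seeing the data. For cervix against myometrium in hCG mice they were Pde4a -0.098 with limma voom and -0.11 without libraries 1, 3 and 5. In PBS mice they were Pde4d -0.0078 and Pde7a -0.022 with limma voom, Pde4d -0.12 and Pde7a -0.092 with the replicate block, Pde4d -0.099 and Pde7a -0.020 without the Lars2 libraries, and Pde4d -0.042 without the yolk sac libraries. For the difference of the responses they were Pde8b 0.037 with upper-quartile factors, Pde4b -0.25 with limma voom, Pde4b -0.18 and Pde7b -0.13 with 2 surrogate variables, Pde8b 0.038 with the replicate block, Pde4b -0.22 and Pde7b -0.0036 without libraries 1, 3 and 5, and Pde8b 0.15 without the Lars2 and 0.052 without the yolk sac libraries.

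On leaving out single libraries, sign changed within -0.055 to 0.15 for Pde3a, -0.099 to 0.11 for Pde7a and -0.097 to 0.16 for Pde8b in cervix, -0.072 to 0.066 for Pde3b and -0.11 to 0.025 for Pde4b in myometrium, -0.0064 to 0.22 for Pde4a between tissues in hCG mice, -0.097 to 0.15 for Pde4d and -0.054 to 0.10 for Pde7a in PBS mice, and -0.031 to 0.16 for Pde7b and -0.19 to 0.069 for Pde8b in the difference of the responses.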
